A study of Mus musculus with 8 samples.

Results

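Microglia, the resident macrophages of the brain, were picked out of single-cell RNA-seq libraries made to profile Nestin-GFP-positive neural stem cells of the mouse dentate gyrus. A barcode was taken as a cell with over 500 detected genes and under 10% mitochondrial UMIs (unique molecular identifiers, 1 per captured transcript). Cells were chosen by the detection of marker transcripts, and a cell was called microglia with a UMI for at least 3 of C1qa, C1qb, P2ry12, Csf1r, Cx3cr1 and Tmem119. At most 1 of 10 genes of other cells was tolerated (Mog, Mag, Mobp, Pdgfra, Cldn5, Flt1, Slc1a2, Gja1, Stmn2, Eomes). This gave 683 of 24376 cells, which is 2.80% of all cells kept from 26036 barcodes. Of these 683, 637 lay in a single library of 1542 cells.

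All animals were Ki67TD-NES mice on a C57BL/6J/CD1 mixed background. They were heterozygous for Nestin-GFP, for a tamoxifen-inducible Cre driven by Ki67 (Ki67-creERT2) and for a Cre-dependent tdTomato reporter, and no library came from mice without these alleles. Every mouse received tamoxifen by gavage for 6 days and was culled on day 8, so that cells that had divided, and their progeny, could turn red. The dentate gyrus was dissected, digested with enzymes on a warm orbital shaker, triturated and sorted for fluorescence. Male and female animals were pooled for each experiment. There was 1 library at 1 month, there were 4 at 2 months and 3 at 6 months of age by the labels, where the study's methods give an age range that starts at 6 months. The library with most microglia came from 2-month mice and is labelled as holding GFP+tdT+ and GFP-tdT- cells, whereas another 2-month library holds GFP+tdT- cells and the remaining 6 hold GFP+tdT+ and GFP+tdT- cells. The study's methods describe only GFP-positive gates. The 4 libraries at 2 months used version 2 of the 10x 3′ chemistry and the other 4 used version 3. Sort labels could therefore be set side by side among the 2-month libraries, which share age and chemistry, although only 1 library has the GFP-tdT- label. The study's methods give fewer experiments than libraries at 2 months, and state that tdTomato-positive and -negative cells of the first dataset were sequenced apart. The library with most microglia and the GFP+tdT- library may therefore share an experiment and its mice. Between 2 months and the other ages, age and chemistry cannot be told apart.

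Microglia enter the brain from the yolk sac in embryonic life and maintain themselves there. They depend on signals through the receptor Csf1r and on TGF-beta, and the transcription factor PU.1, encoded by Spi1, is required for their formation. They survey the tissue with motile processes, respond to ATP and ADP released by other cells through purinergic receptors, and take up dying cells and synapses. In the dentate gyrus they are known for clearing newborn cells of the neurogenic niche that die.

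The main library held 4938419 UMIs over all barcodes, 1945559 of them in its 637 microglia. These made up 41.3% of its cells (95% exact binomial interval 38.8 to 43.8; intervals throughout cover counting error only). The 6-month replicate 1 library followed with 28 of 2519 cells (1.11%, 0.740 to 1.60). The GFP+tdT- library at 2 months held 3 of 2647, the other 2-month libraries 4 of 4059 and 6 of 1785, and 6-month replicate 3 held 5 of 5164. None was found among 3288 cells at 1 month, which allows a share of up to 0.0912% (3 counts of the total, the limit used for a count of 0), or among 3372 cells of 6-month replicate 2, which allows up to 0.0890%. The libraries without microglia were among the deep ones, with 26464703 UMIs at 1 month and 22621305 in 6-month replicate 2. A test of age over libraries was not made, since 1 library holds nearly all microglia.

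**Figure D1:**
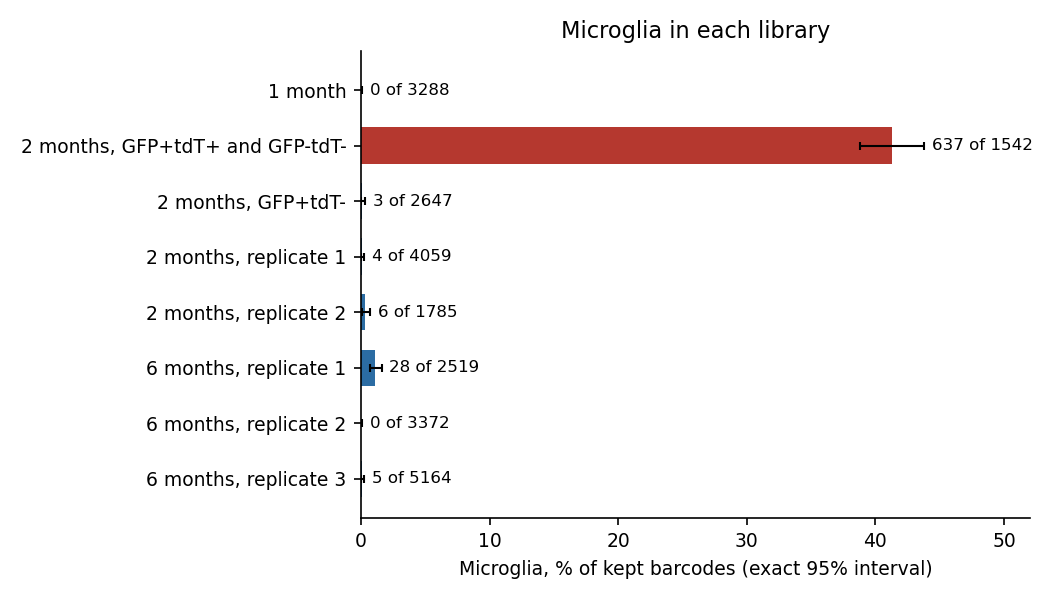
Microglia as a percentage of the kept cells in each of the 8 libraries (bars, linear axis from 0), with exact 95% binomial intervals as whiskers and the counts beside the bars. The 2-month library labelled GFP+tdT+ and GFP-tdT- stands at 41.3%, and 6-month replicate 1 is next at 1.11%.

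Libraries were checked for shared cell barcodes. The main library shared 3, 5 and 5 barcode sequences with the other 3 version 2 libraries and 0 with the version 3 libraries. No barcode was microglia in both of a pair.

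The values that chose the cells were clear of the threshold for most of them. All 6 markers were detected in 594 of the 637 cells (93.2%), 5 in 27, 4 in 8 and 3 in 8. Just outside the rule, 26 cells had 2 of the markers, 163 had 1 and 695 had none. A further 21 cells of the library had at least 3 markers but more than 1 gene of another cell type, and 18 of these had all 6. Among the members, 537 had none of the excluded genes and 100 had 1. A microglial cell yielded a median of 2874 UMIs (range 943 to 9977) and 1304 genes, with a median of 1.37% mitochondrial UMIs, against a median of 2652 UMIs over all cells of the library.

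The 905 other cells of the main library were classed from markers as 531 astrocyte- or neural stem cell-like, 213 neuroblast-like, 46 oligodendrocyte precursor-like, 40 oligodendrocyte-like, 17 endothelial-like and 11 mural-like cells, 2 intermediate progenitors, 1 macrophage and 44 left unassigned. UMIs were summed over the cells of a group and scaled to a common library size as CPM, and since 3′ tags give 1 count a transcript, levels were not divided by gene length. A gene was tested if detected in at least 20% of either group, and called at a 4-fold ratio after adding 10 CPM. Of 2762 genes, 430 were higher in microglia (15.6%) and 384 lower (13.9%), with a median log2 ratio of −0.40. The rule read the same transcripts of the same cells, so these contrasts are descriptions without a test, and the percentages are the background for the list counts that follow.

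Microglial transcripts were also found outside the called cells. Among 687 other cells with 2 or more of the excluded genes (median 2260 UMIs), C1qa had a UMI in 6.99% (5.20 to 9.16), P2ry12 in 7.28% and Ctss in 8.01%. These include the 21 cells with 3 or more markers. In the 666 others the C1qa share was 4.05% (2.69 to 5.84), and in the 534 with none of the 6 markers Ctss was still found in 4.87% (3.20 to 7.05). In the GFP+tdT- library C1qa had a UMI in 0.104% of 1932 such cells at a median of 3454.5 UMIs. The levels quoted for other cells include these transcripts, and whether they came from free RNA or from barcodes with more than 1 cell was not tested.

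PU.1 binds a purine-rich motif, and promoters of genes higher in microglia were searched for the letters GAGGAAGT on either strand within 250 bases before the gene start (RefSeq, GRCm38.p6). The motif was present in 26 of the 327 higher genes with a promoter entry (7.95%), in 4 of 299 lower genes (1.34%) in 66 of 2187 tested genes (3.02%) and in 755 of 27025 promoters in all (2.79%). None of 14 homeostatic or rule genes, 20 immediate early genes and 15 cytokine and chemokine genes with an entry held it. The shorter letters GAGGAA, which lie within the longer motif, were present in 35.8% of the higher genes, 25.4% of the lower and 25.9% of all promoters. The 5 stretches shown are from the genes with the motif and the highest ratios, chosen after their values were seen, with the motif in capitals as read 5′ to 3′ on the gene's strand, so that ACTTCCTC is the motif on the opposite strand. They serve to show where the letters stand, and a match is not evidence of binding.
C1qc, chr4:136893076-136893135, minus strand: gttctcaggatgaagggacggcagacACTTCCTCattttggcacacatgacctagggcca
Cd37, chr7:45238840-45238890, minus strand: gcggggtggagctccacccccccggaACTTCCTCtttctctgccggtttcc
Bcl2a1b, chr9:89199099-89199158, plus strand: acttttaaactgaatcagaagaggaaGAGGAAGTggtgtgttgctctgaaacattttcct
Ptgs1, chr2:36230376-36230425, plus strand: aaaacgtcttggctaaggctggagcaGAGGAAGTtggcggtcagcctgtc
Hpgds, chr6:65144746-65144805, minus strand: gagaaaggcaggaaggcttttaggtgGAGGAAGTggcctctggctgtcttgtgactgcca

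C1qc, a chain of complement C1q, stood at 4335 CPM in microglia and 121 CPM in other cells. Cd37, a tetraspanin of leukocytes, stood at 491 CPM against 10.0. Bcl2a1b, a survival gene from a family of near-identical copies whose reads may be split between them, stood at 350 CPM against 6.91. Ptgs1 and Hpgds, which act in sequence in prostaglandin D2 synthesis, stood at 615 CPM and at 571 CPM, with log2 ratios of 4.39 and 4.27. Of the 5 genes C1qc had the highest level outside microglia.

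The transcription factors of the microglial lineage were broadly higher in microglia. Of 15 tested factors, 14 were 4-fold higher, none was lower, and the median log2 ratio was 3.54. Cebpb, a factor of myeloid genes, stood at 1280 CPM against 107 (log2 ratio 3.47). Spi1 stood at 626 CPM against 13.1 (log2 ratio 4.78) and was detected in 80.5% of microglia. Irf8, a factor of myeloid cells, stood at 599 CPM and a log2 ratio of 4.28, and Mef2c at 840 CPM and 3.30. Sall1, the factor that separates microglia from other macrophages, was lower in level at 147 CPM against 19.0, and was detected in 33.4% of cells.

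Homeostatic genes, those that mark unperturbed microglia, took the largest share of microglial UMIs among the gene lists, a rank that rested on Cst3. In the 601 cells of clusters 1 to 3 described later, the list without Cst3 stood at 41001 CPM and lysosomal genes at 49404. The homeostatic list of 20 took 10.7% of microglial UMIs against 1.36% in other cells. It holds 4 genes of the rule (P2ry12, Tmem119, Cx3cr1 and Csf1r), and without them all 15 tested genes were higher and 16 genes took 9.46% of UMIs against 1.33%. Cst3, a cysteine protease inhibitor also made by astrocytes, was at 66387 CPM in microglia and 12294 in other cells, or 129159 UMIs. P2ry12, the ADP receptor that steers processes to damage, was at 4376 CPM in 98.1% of cells, and Tmem119, a membrane protein of microglia, at 2407 CPM. Of genes not used to choose the cells, Gpr34, a lysophospholipid receptor, stood at 2397 CPM against 50.4 (log2 ratio 5.32), Selplg at 3079 against 77.1 (5.15), Olfml3 at 1113 against 27.3 (4.91) and Sparc, a matrix protein, at 4016 against 327 (3.58).

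**Figure D2:**
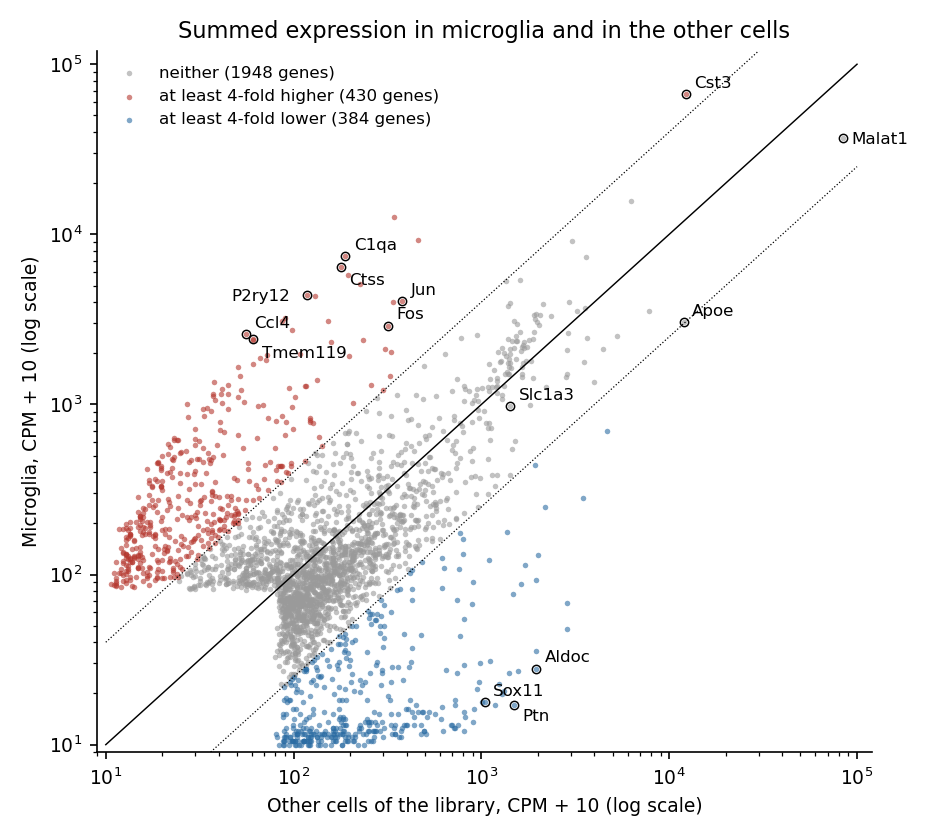
Summed expression of 2762 genes in microglia (y axis) and in the other cells of the main library (x axis), each in CPM plus 10 on log axes; the solid line is equality, the dotted lines are 4-fold, and colours mark the 430 genes above and 384 below. C1qa, at 7427 CPM against 179, lies far above the line, and Ptn, at 7.20 against 1480, far below it.

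Other genes among the 15 with the highest ratios included enzymes and signalling genes. Lpcat2, an enzyme of platelet-activating factor synthesis, stood at 1001 CPM against 16.9 (log2 ratio 5.23) and Rgs1, a regulator of G protein signalling, at 1340 against 27.6 (5.17). Ly86, the partner of a Toll-like receptor homologue, stood at 1661 against 40.4 (5.05) and Cd53, a leukocyte tetraspanin, at 835 against 17.3 (4.95). Leaving out P2ry12 and Cx3cr1, which the rule used, 6 of 7 tested purinergic and chemokine receptors were higher, with a median log2 ratio of 3.79.

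Complement was represented by the C1q chains and not by C3. C1qa stood at 7427 CPM, C1qb at 5772 and C1qc at 4335, and the genes lie together on chromosome 4 with 2851 bases between C1qa and C1qc and 3616 between C1qc and C1qb. The rule used C1qa and C1qb. Of the 13 other complement genes and receptors 6 were tested and all 6 were higher, and these 13 took 0.550% of microglial UMIs against 0.0174%. C3, Cfb and Vsig4 had 0 UMIs in the 637 cells. The C3 receptor gene Itgam and the C3a receptor gene C3ar1 were at 383 and 179 CPM.

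Genes of uptake and degradation were abundant. Among phagocytic receptors 11 of 14 tested were higher, including Tyrobp, the adaptor of Trem2, at 2744 CPM against 88.1, Fcer1g, a signalling chain of Fc receptors, at 1864 against 56.0, Trem2 at 1809 against 61.2, and the Fc receptor gene Fcgr3 at 1217 against 31.4. Mertk, a receptor for apoptotic cells, was at 204 CPM against 55.6, short of the 4-fold threshold at a log2 ratio of 1.70. Of 20 lysosomal genes 15 were higher, and they took 4.91% of microglial UMIs against 0.464%. The proteases Ctsd (9204 CPM against 452), Ctss (6453 against 168) and Lgmn (5115 against 216) led, while Psap and Lamp1, used by all cells, were at log2 ratios of 1.61 and 1.13.

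Receptors were found in microglia and several of their ligands in other cells. Csf1r stood at 3231 CPM and Cx3cr1, the fractalkine receptor, at 1948, both genes that the rule used, and 5 of the 6 other tested receptors for ligands from partner cells were higher. Tgfbr1 stood at 681 CPM against 32.8. Neither Il34 nor Cx3cl1, which encode ligands of Csf1r and Cx3cr1, had a UMI in microglia. Cx3cl1 stood at 27.3 CPM in neuroblast-like cells (18.3 to 39.2). Il34 was scarce there too, with 6 UMIs (5.65 CPM), and had 1 UMI in astrocyte- or stem-like cells. Csf1, the other Csf1r ligand gene, was at 19.0 CPM in microglia (13.4 to 26.2), 28.0 in astrocyte- or stem-like cells and 83.6 in the 40 oligodendrocyte-like cells (45.7 to 140). Of 6 tested genes of the ligand list 3 were higher in microglia. They were Tgfb1 at 520 CPM against 16.6, Pros1, a ligand of Mertk that bridges to dying cells, at 214 against 15.5, and Nrros, a protein that anchors latent TGF-beta, at 169 against 6.91.

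Chemokine and cytokine genes were detected in a part of the cells. Ccl4 and Ccl3, which attract leukocytes, stood at 2592 CPM against 45.6 and at 1136 against 27.3. Ccl4 had the highest log2 ratio of the genes named here, 5.55, but a UMI in only 50.7% of microglia, and Ccl3 in 42.5%. Tnf was detected in 19.8% of cells at 174 CPM, Il1a in 29.7% at 207, Ccl2 in 17.4% at 198, and Il1b in 2.35% at 19.5. Of 8 tested genes of the list 7 were higher. In other cells with 2 or more excluded genes, Ccl4 had a UMI in 3.93%. Il18 went the other way, with 47.3 CPM in microglia and 178 in other cells, short of 4-fold.

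Immediate early genes, transcribed within minutes of a stimulus without new protein synthesis, were high in microglia. Of 21 tested, 18 were 4-fold higher and none lower, and the list of 25 took 2.77% of microglial UMIs against 0.284%. Jun stood at 4021 CPM against 370 and was detected in 93.2% of cells, Junb at 3081 against 142, Fos at 2898 against 309 in 73.9% of cells, Rhob at 2105 against 299, Klf2 at 1959 against 97.8 and Atf3 at 949 against 24.5 in 49.0%. By cell class the summed list stood at 27728 CPM in microglia, 12091 in the 17 endothelial-like cells (which also held the 6 microglial markers at 4541 CPM), 3597 in neuroblast-like, 1983 in oligodendrocyte-like, 1883 in oligodendrocyte precursor-like and 1364 in astrocyte- or stem-like cells. Of 8 tested heat shock genes 1 was higher (Hspa1a, 468 CPM against 21.4). That list stood at 4244 CPM in microglia, 5773 in neuroblast-like, 3657 in endothelial-like, 2479 in oligodendrocyte-like, 2288 in oligodendrocyte precursor-like and 2227 in astrocyte- or stem-like cells. The classes share 1 library, whose label names GFP+tdT+ and GFP-tdT- cells, and the part of the preparation in these levels was not tested.

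**Figure D3:**
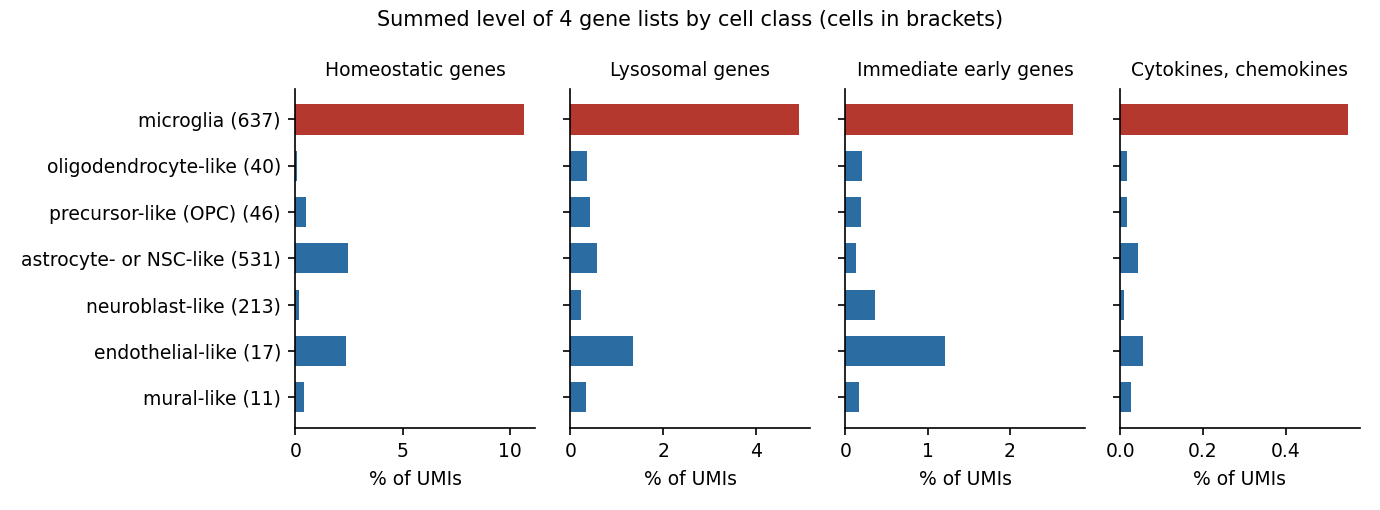
Summed level of 4 gene lists (bars, % of the UMIs of each class, linear axes from 0) in microglia and in 6 other cell classes of the main library, with the number of cells in brackets. Immediate early genes took 2.77% of UMIs in microglia, and the 17 endothelial-like cells were next.

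The cAMP response element TGACGTCA, a palindrome, and the AP-1 element TGACTCA were searched in the same way. TGACGTCA was present in 3 of 20 immediate early promoters with an entry (15%), in 3.38% of tested genes, in 1.83% of the higher genes and in 1.77% of all promoters. TGACTCA was present in none of the 20 and in 4 of 15 cytokine and chemokine promoters (26.7%: Cxcl10, Il1a, Il1rn and Il6). It was present in 4.59% of the higher genes, 6.69% of the lower, 4.21% of tested genes and 5.16% of all promoters. In the 623 microglia-like cells described later Il1a had 403 UMIs, Cxcl10 and Il6 had 19 each and Il1rn had 1. The 3 immediate early stretches and that of Il1a are shown as examples of the matches, picked after the values were seen.
Dusp1, chr17:26508582-26508641, minus strand: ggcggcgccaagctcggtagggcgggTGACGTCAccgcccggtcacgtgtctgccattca
Ppp1r15a, chr7:45526269-45526306, minus strand: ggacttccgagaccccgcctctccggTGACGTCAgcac
Btg2, chr1:134079288-134079347, minus strand: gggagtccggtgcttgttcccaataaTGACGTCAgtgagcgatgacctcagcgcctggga
Il1a, chr2:129309973-129310010, minus strand: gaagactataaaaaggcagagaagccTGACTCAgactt

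Genes of antigen presentation were found for both classes. In class I, where 5 of 6 tested genes were higher, B2m, the shared light chain, stood at 2392 CPM against 225, H2-D1 at 448 and H2-K1 at 263. In class II both tested genes were higher, H2-DMa at 247 CPM against 8.29 and H2-DMb1 at 148 against 4.15, which encode the chains of a peptide-loading protein. The presenting chains were scarce, with H2-Aa at 10.3 CPM and H2-Ab1 at 17.0, and 1 macrophage-like cell held 17 of the 20 H2-Aa and 19 of the 33 H2-Ab1 UMIs. In the 601 cells of clusters 1 to 3 described later they were at 1.60 and 6.40 CPM. Cd74, the invariant chain, was at 54.5 CPM over the 637 cells and at 23.5 CPM in those 601 cells. Genes that rise in microglia around plaques and in demyelination, a list that includes general lysosomal genes, were split: 8 of 13 tested were higher and 1 lower. Some members were scarce, with Axl at 4.63 CPM, Itgax at 3.60, Lpl at 9.25 and Spp1 at 7.20. Others were not: Cd52 and Ccl6 were among the 8 higher genes. In the 623 microglia-like cells described later, Cd52 stood at 237 CPM, and Cd9, not among the 8, at 1152. Apoe stood at 3032 CPM in microglia, below the 25543 of astrocyte- or stem-like cells, and Fabp5 at 13.4 against 956 in other cells. Interferon-response genes were barely seen: of 24 measured, only Ccl12, an interferon-responsive chemokine, passed the filter, at 176 CPM.

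Few cell cycle genes were detected widely enough to be tested. Of 16 S-phase and 16 G2/M genes, 1 each passed the filter. Slbp, of the S-phase list, stood at 98.2 CPM against 124, short of 4-fold. Hmgb2, a chromatin protein of dividing cells, was lower at 113 CPM against 1090. Mki67, which drives the Cre of these mice, stood at 1.03 CPM and Top2a at 3.08.

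Genes of other cell types were checked in the 637 cells. Of 10 monocyte and granulocyte markers 7 had 0 UMIs, and Ccr2 stood at 2.57 CPM. Of 9 lymphocyte markers 8 had none, the exception being Cd79b at 35.0 CPM. Hbb-bs of red blood cells stood at 8.22 CPM and Pecam1, which leukocytes also carry, at 23.1. All 6 ependymal and choroid markers had 0 UMIs. The rule itself limited Mog, Mag, Mobp, Pdgfra, Stmn2, Slc1a2, Gja1, Cldn5, Flt1 and Eomes, so low levels of these restate the choice, and Mag still stood at 38.0 CPM. Without them, 6 oligodendrocyte genes took 0.00267% of UMIs against 0.366% in other cells, led by Mbp at 13.9 CPM. Of the 7 other oligodendrocyte precursor genes 2 had 0 UMIs, and among neuroblast genes Sox11 led at 7.71 CPM against 1029. The genes lowest in microglia relative to other cells were Ptn, a growth factor of stem cells and glia (7.20 against 1480 CPM, log2 ratio −6.44), and Aldoc, an astrocytic aldolase (18.0 against 1953, −6.13).

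Of the listed genes of other neural cells, Slc1a3 and Mag were detected in the largest shares of microglia. Slc1a3, the glutamate transporter of astrocytes and stem cells and no part of the rule, was detected in 68.9% of microglia at 971 CPM (928 to 1016), between the 2836 CPM of astrocyte- or stem-like cells and the 267 of neuroblast-like cells. Aldoc, also outside the rule and at 1953 CPM in other cells where Slc1a3 stood at 1411, had a UMI in 4.71% of microglia. Slc1a3 was also detected in 67.9% of the 28 microglia of 6-month replicate 1. Mag, a myelin gene, was detected in 68 microglia (10.7%) with 74 UMIs. It is among the excluded genes, of which a microglial cell may hold 1, so a cell with Mag could hold none of the others, and their counts (2 cells with Mog, 4 with Mobp, 17 with Slc1a2) are limited by the rule. Mag lies on chromosome 7 (30899176 to 30914873, minus strand, GRCm38), 18833 bases from Cd22 (30865402 to 30880342, minus strand), a leukocyte gene with 9 UMIs in the microglia. Mag was detected in 5 of the 28 microglia of 6-month replicate 1. The source of the Mag UMIs was not tested.

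The reporter elements gave low values for Nestin-GFP in microglia. The microglia-like cells counted here are the 623 that remain when the 14 macrophage-like cells described later are set aside. The eGFP element had a UMI in 2 of these 623 (0.321%, 0.0389 to 1.15), in 16.7% of other cells, at a median of 2896 UMIs in microglia. By class it was found in 31.5% of neuroblast-like cells, 12 of 46 oligodendrocyte precursor-like cells (26.1%), 8.47% of astrocyte- or stem-like cells and 2 of 40 oligodendrocyte-like cells. Thinned to 1500 UMIs a cell the shares were 0.166% in microglia-like and 8.92% in other cells. They were 13.9% in neuroblast-like, 21.4% in oligodendrocyte precursor-like and 7.09% in astrocyte- or stem-like cells, and 0 in the oligodendrocyte-like cells. The element of the intact tdTomato locus, tdTomatoLoxP, had a UMI in 76.2% of microglia-like and 75.6% of other cells, and WPRE, transcribed after recombination, in 11.2% (8.86 to 14.0) and 34.1%. In cells sorted without tdTomato, the 940 astrocyte- or stem-like cells of the GFP+tdT- library (median 2498.5 UMIs), the WPRE share was 9.89%, inside the interval of the microglia-like share, so no expression is read from the latter. By the study's thresholds 9 of 623 microglia-like cells (1.44%, 0.663 to 2.72) counted as recombined, against 114 of 213 neuroblast-like cells (53.5%). The share was 15 of 46 in oligodendrocyte precursor-like (32.6%), 3.39% in astrocyte- or stem-like and 0 of 40 in oligodendrocyte-like cells. In 6-month replicate 1 the 28 microglia include 6 macrophage-like cells. The eGFP element had a UMI in 0 of the 28, compared with 51.8% of other cells. Under the doubled thresholds of version 3 chemistry 7 of the 28 counted as recombined (25%, 10.7 to 44.9), compared with 138 of 2491 other cells (5.54%).

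The pooled animals of both sexes were seen in the cells. Among the 637 microglia 422 had Xist UMIs without Y-linked UMIs, 64 had Y-linked UMIs alone, 5 had both and 146 had neither. Cells with both were 1.02% of those with either (0.331 to 2.36), against 1.39% in other cells.

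The states among the microglia were described by clustering the 637 cells on their 2000 most variable genes, which gave 4 clusters. The genes that separate the clusters built them and are given as descriptions. Cluster 1 held 258 cells (40.5%) with a median of 2525 UMIs, cluster 2 held 253 (39.7%) with 3211, cluster 3 held 90 (14.1%) with 4063, and cluster 4 held 36 (5.65%) with 1670.5. Cells with all 6 markers were 251, 246 and 88 in clusters 1 to 3 but only 9 in cluster 4. Depth moved with the clusters, so list levels were also compared after thinning each cell to 1500 UMIs, which left 245, 252, 90 and 25 cells.

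Clusters 1 to 3 lay along a range of immediate early gene expression. In UMIs per 1500 the list averaged 17.9 ± 10.9 (SD over cells) in cluster 1, 49.8 ± 21.1 in cluster 2 and 81.7 ± 24.9 in cluster 3. Fos stood at 688, 3479 and 5977 CPM in clusters 1, 2 and 3, Atf3 at 105, 1177 and 2138, and Ier2 at 74.2, 587 and 2085. Of the 22 list genes that passed the filter for cluster 1, 19 were 2-fold below the other microglia there, where 3.24% of 2009 tested genes were that low. Of the 23 that passed it for cluster 3, 17 were 2-fold above, where 3.95% of 2379 were that high. The same 3 clusters were in the opposite order for homeostatic genes, which averaged 194 ± 43.2, 153 ± 36.7 and 127 ± 31.6 UMIs per 1500. P2ry12 stood at 5943, 4141 and 2565 CPM and P2ry13, another ADP receptor, at 874, 577 and 247. Csf1r held its level, with 3115, 3354 and 3326 CPM.

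**Figure D4:**
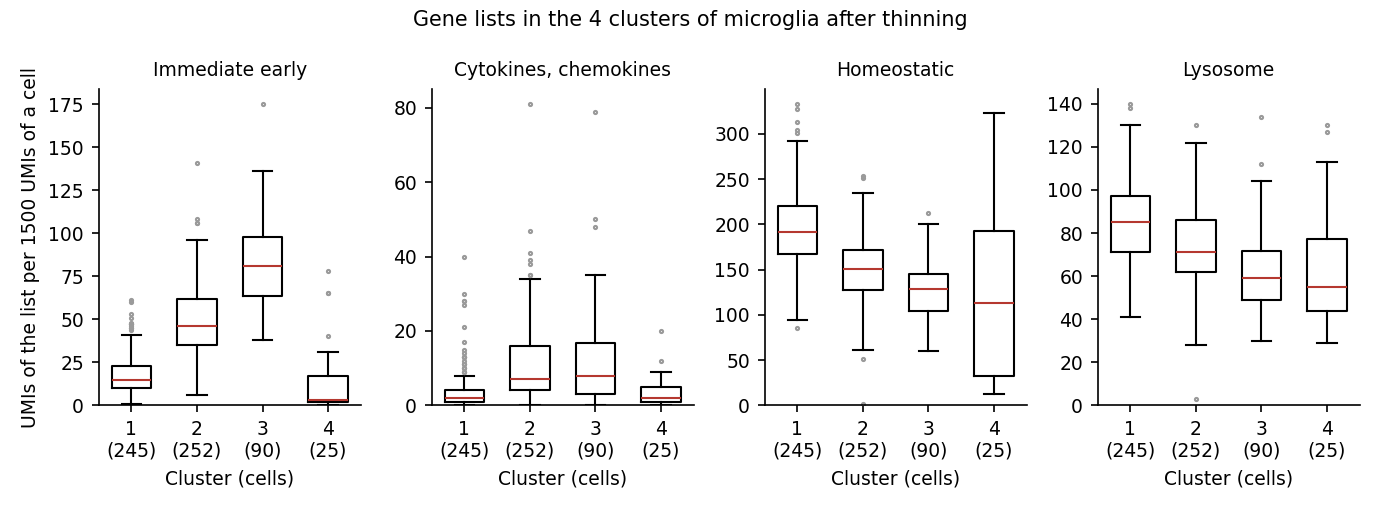
UMIs per 1500 for 4 gene lists in the cells of each of the 4 clusters, thinned to equal depth; a box spans the quartiles with the median in red, whiskers reach 1.5 times the box and points are cells beyond them. Immediate early genes average 17.9, 49.8 and 81.7 in clusters 1 to 3 while homeostatic genes average 194, 153 and 127, and cluster 4 (25 thinned cells) spreads widely for homeostatic genes (mean 116, SD 94.6).

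Cluster 1 was set apart mostly by what it lacked. Besides Atf3 and Ier2, it was low in Tnf (19.3 CPM), Egr1 (62.3) and Cd83 (72.7), and only 4 of the tested genes (0.199%) were 2-fold higher, led by the uncharacterised transcript Gm26825 at 313 CPM against 94.4 in the other microglia. Against clusters 2 and 3 alone, 7 of 10 tested cytokine and chemokine genes were 2-fold lower in cluster 1, where 3.27% of 2078 tested genes were that low. Few genes set cluster 2 apart, with 4 at 2-fold higher (0.198%) and 2 lower (0.099%). The higher ones were the uncharacterised transcript Gm26532 (132 CPM against 50.7), Ccl4 (3704 against 1743), Myc (120 against 52.6) and Hmox1, the heme oxygenase of the oxidative stress response (162 against 74.3). Ccl4 was the only 1 of 9 tested cytokine and chemokine genes past 2-fold there, and Ccl3, at 1574 CPM against 802, fell just short at a log2 ratio of 0.96. The lower ones were Lyz2 and Apoe, the latter at 1866 CPM against 3921, where the other members include the macrophage-like cells of cluster 4. Against clusters 1 and 3 alone Apoe stood at 1866 against 2241 CPM and Lyz2 at 189 against 223, neither 2-fold lower.

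Cluster 3 was led by Cd83, and 94 genes were 2-fold higher in it. Cd83, a surface protein of activated myeloid cells, stood at 1288 CPM against 175 in the other microglia (log2 ratio 2.81). Nfkbia, the inhibitor of NF-kB, stood at 3837 against 688, Nfkbiz at 533 against 78.8, and Tnf at 541 against 90.2. In this cluster Tnf was detected in 61.1% of cells and Il1a in 76.7% (627 CPM), compared with 3.88% and 14.0% in cluster 1. Of 9 tested cytokine and chemokine genes Tnf and Il1a were 2-fold above the other microglia in cluster 3 and Ccl9 was 2-fold below, and Ccl4 stood at 3512 CPM, close to cluster 2. Cxcl2, Cxcl10, Il1b and Csf1 were also 2-fold above but did not pass the filter, with 44, 10, 23 and 15 UMIs in the 90 cells. Against clusters 1 and 2 alone Ccl2 (341 CPM against 152) and Ccl12 (303 against 142) were also past 2-fold, so 4 of 9 tested were, and 89 of 2392 tested genes in all (3.72%). Fewer genes, 45 (1.89%), were 2-fold lower, led by Gm26825 at 8.33 CPM against 207. Heat shock genes averaged 4.73, 7.55 and 6.82 UMIs per 1500 over clusters 1 to 3, and the disease-associated list 39.3, 39.2 and 40.6. Class I genes averaged 5.15, 4.83 and 6.16, with H2-K1 and H2-D1 past 2-fold above the other microglia in cluster 3. Of the immediate early genes with promoters shown, Ppp1r15a stood at 123, 441 and 1666 CPM, Btg2 at 1041, 2265 and 3068, and Dusp1 at 273, 1369 and 2049 in clusters 1, 2 and 3.

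Cell by cell the immediate early level formed a spread. Over 601 thinned microglia-like cells it had a mean of 40.5 UMIs per 1500, a median of 34, a 10th percentile of 9, a 90th of 84 and a maximum of 175, and its variance was 21.2 times its mean. These are the microglia-like cells with at least 1500 UMIs, a different set from the 601 cells of clusters 1 to 3. They include cells with almost no Malat1, described later, which were low in immediate early genes. Cytokine and chemokine UMIs had a median of 4 and a maximum of 81, with 49 cells at 0. By contrast 371 cells had no interferon-response UMI and 491 no G2/M UMI, while the highest cells held 12 and 13. Across these cells, which share 1 library and its depth, Spearman's rho of the immediate early list was 0.46 with cytokines and chemokines, −0.46 with homeostatic genes, −0.22 with lysosomal genes, 0.38 with heat shock genes and 0.25 with the total UMIs before thinning. In lists that are shares of 1 fixed total, a rise in one list lowers the sum of the rest, and its part in the negative values was not tested.

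Some chemokine, cytokine and immediate early genes were often detected in the same cells, whether or not they are neighbours. Ccl3 (chromosome 11, 83647844 to 83649355) and Ccl4 (83662584 to 83664683) lie 13228 bases apart, and 205 of the 623 microglia-like cells had both, 62 had Ccl3 alone, 116 had Ccl4 alone and 240 had neither. Ccl4 was thus detected in 76.8% of cells with Ccl3 and in 32.6% of those without. Tnf and Il1a were detected together in 67 cells, and Il1a in 53.6% of cells with Tnf and 24.5% without. Ccl4 was detected in 68.7% of cells with Atf3 and in 34.5% of those without. Deeper cells detect more of every gene, and these shares were not corrected for depth.

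Cluster 4, in which 100 of 1919 tested genes were 2-fold higher (5.21%) and 383 lower (20%), was a mixture of 2 kinds of cell. Of its 36 cells, 14 carried 4 to 8 of 10 markers of border-associated macrophages, the macrophages of the meninges and vessels, and the other 22 carried almost no Malat1. The thresholds for both were set after these values were seen, at gaps in them. Over the 637 cells, 462 had no macrophage marker, 159 had 1, 2 had 2, none had 3 and 14 had 4 or more. Stab1, a scavenger receptor among the 10, had a UMI in 26.1% of all 637 cells, at 119 CPM.

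The 14 macrophage-like cells (2.20%, 1.21 to 3.66) do not bear out the name microglia. Against the 623 microglia-like cells, 166 of 2407 tested genes were 4-fold higher (6.9%) and 248 lower (10.3%). Pf4, Mrc1 and F13a1 are among the 10 markers that chose these cells, so their levels (6577, 1012 and 1202 CPM) restate the choice. Among genes outside the markers, Lyz2, lysozyme, stood at 16095 CPM against 210 and Dab2, an endocytic adaptor, at 1708 against 4.70. Mgl2, a macrophage lectin, had 50 UMIs in the 14 cells and none in the 623. Of 19 tested homeostatic genes 17 were lower. Tmem119 stood at 31.6 CPM against 2446, while Sparc and Olfml3 had 0 UMIs in the macrophage-like cells against 7813 and 2165. Apoe stood at 60206 CPM against 2087 and Igf1 at 285 against 4.70, while Cd9 and Ctsd of the same disease-associated list were lower (31.6 against 1152 CPM, and 2277 against 9318). Neither of the 2 tested class II genes was higher, and 1 of the 14 cells held 114 of their 116 class II UMIs. All 14 had nevertheless passed the rule of 3 markers. Over all libraries 22 of the 683 cells were of this kind, 6 of them among the 28 of 6-month replicate 1. Recombination was called in 0 of the 14.

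The remaining 22 cells of cluster 4 were set apart by transcripts they lacked. Malat1, a long noncoding RNA kept in the nucleus, had 4 UMIs in the 22 cells and 70153 in the other 601 microglia-like cells (106 against 37389 CPM). With 1 macrophage-like cell they make 23 of 637 cells (3.61%, 2.30 to 5.37) with Malat1 under 0.2% of UMIs. The highest share among the 23 was 0.0865% and the lowest among the rest 0.373%. Xist, also nuclear, had 0 UMIs against 2721 (1450 CPM). The 22 cells had a median of 1632.5 UMIs against 2956, 678.5 genes against 1320 and 2.71% mitochondrial UMIs against 1.33%. Ribosomal protein genes took a median of 27.1% of their UMIs (15.1 to 40.6) against 12.03% (3.81 to 31.1).

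Levels differed by program in these 22 cells. Homeostatic genes summed to 122341 CPM against 107730, a sum that Cst3 carried at 95440 against 66729. The other 19 genes of the list stood at 26901 CPM against 41001 and 18 of them were below the other cells, P2ry12 at 2337 against 4486 and Tmem119 at 1195 against 2471. Lysosomal genes stood at 50110 CPM against 49404 and C1qa at 7675 against 7425. Immediate early genes stood at 1726 CPM against 28398, transcription factors of the lineage at 2735 against 6800. Klf2, Dusp1 and Egr1 had no UMIs in the 22 cells against 1985, 1106 and 507 CPM, and Jun stood at 239 CPM against 4117. Cx3cr1 was at 372 CPM against 2006. Of 1900 tested genes 209 were 4-fold lower (11%) and 2 higher (0.105%), which were Coq2 and Gng10. Barcodes under the same Malat1 threshold made up 2.32% of the other cells of the library and 4 of 28 microglia in 6-month replicate 1, of which 3 were macrophage-like. What these barcodes hold, whole cells or parts of cells, was not tested.

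**Figure D5:**
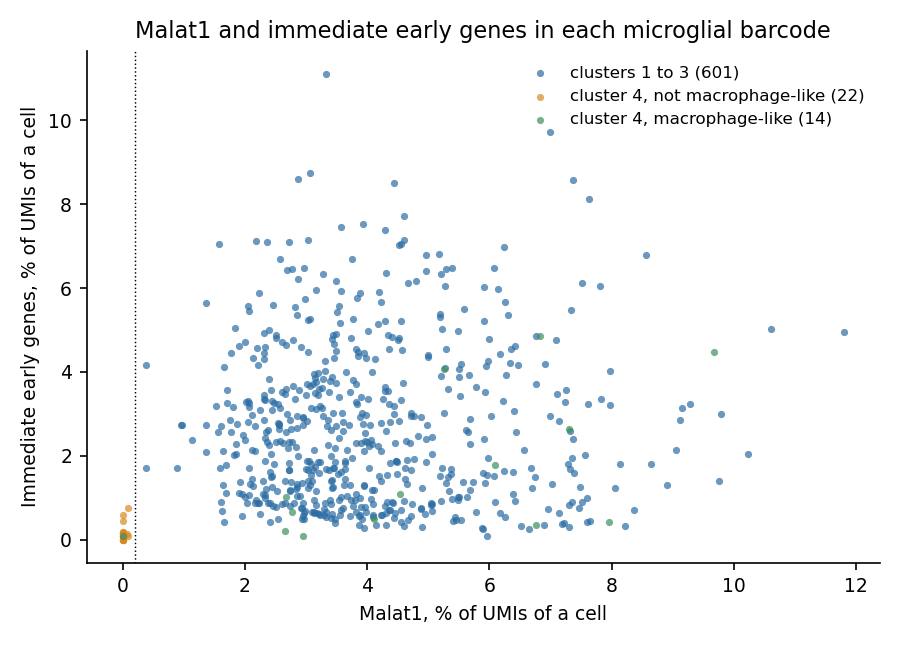
Malat1 as a percentage of UMIs (x axis) against immediate early genes as a percentage of UMIs (y axis) for the 637 microglia of the main library, coloured by kind, with a dotted line at 0.2%. The 22 Malat1-low microglia-like cells and 1 of the 14 macrophage-like cells, which are marked separately, lie below 0.2% Malat1, and the other 614 cells start at 0.373%.

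The library with the next most microglia, 6-month replicate 1, was set beside the main library. Its 22 microglia-like cells gave immediate early genes 5.16% of UMIs against 2.79%, or 70.8 ± 32.3 against 40.6 ± 29.5 UMIs per 1500 (SD over cells). The thinning here was a separate random draw from the one behind the mean of 40.5 given above. Cytokine and chemokine genes took 1.16% against 0.554%, homeostatic genes 9.53% against 10.8% and lysosomal genes 3.65% against 4.94%. Ccl4 stood at 6936 CPM in the 6-month cells and 2626 in the main library, Atf3 at 4318 and 960, P2ry12 at 1859 and 4444, Tmem119 at 1009 and 2446, and Apoe at 6676 and 2087. C1qa, at 7446 and 7430 CPM, and Cst3, at 68032 and 67294, were at close levels. With 1 library on each side no test was possible, and age, chemistry and sort cannot be told apart in this pair. The few microglia-like cells elsewhere gave immediate early shares of 0.371% (3 cells, 2-month GFP+tdT-, of which 2 were Malat1-low and the other gave 0.897%), 3.67% (4 cells) and 7.29% (5 cells) in the other 2-month libraries and 5.55% (4 cells) in 6-month replicate 3. With so few cells, differences among libraries of the same age cannot be told apart from the spread among cells.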

How the data were processed

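Dentate gyrus cells of 8 libraries were profiled by 10x 3′ single-cell RNA-seq. The authors deposited 1 merged table of UMI counts (26036 barcodes, 31058 genes and elements), made with Cell Ranger 3.0.2 on mm10 with reporter elements added and merged without depth normalization. Cutadapt 1.18 and Seurat are also named in the submitters' processing notes. A library was read from each barcode's suffix, and 0 columns were unmapped.

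Counts were summed by cell group, with CPM and log2 ratios after adding 10 CPM (Python 3.11.15, numpy 2.4.6, scipy 1.17.1, pandas 2.3.3). Clusters came from 15 principal components, 15 neighbours and Leiden resolution 0.5 (scanpy 1.11.5, igraph 0.11.9). Figures used matplotlib 3.10.9. Scripts were tested on simulated data. Intervals are exact (binomial for shares, Poisson for counts). Class names needed 3 markers. Doublets were treated only by the excluded genes, and no doublet caller was run; the study's further removal of doublets was not repeated.

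Named genes are the most abundant, the highest and lowest by ratio, the leading genes of each cluster and members of fixed lists; genes of the motif, macrophage-like and Malat1-low accounts were chosen after their values were seen. Members and lists were chosen with earlier results of these data known, and 2 list genes were not matched. Gene positions are from GENCODE M21, and promoters from RefSeq GRCm38.p6. Some genes are not reported here.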

Additional observations from a re-analysis of the deposited data

How the results depend on the processing

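Alternatives changed the cell and gene filters, the pseudocount, the depth, the clustering and the cells left out; 3 of them (leaving out macrophage-like cells, cluster 4 or Malat1-low barcodes) were chosen after seeing the data. Of the main counts and shares 54 alternative values stayed near the reported ones and 12 moved. Microglia outside the main library and 6-month replicate 1 numbered 11 with over 1000 genes required, compared with 18. Genes 4-fold lower were 219 of 1318 tested after thinning (16.6%), 179 of 2762 with a pseudocount of 50 CPM (6.48%), 895 of 8444 with a filter at 5% of cells (10.6%) and 928 of 17301 without one (5.36%), compared with 384 of 2762 (13.9%), and 204 genes were higher with a pseudocount of 50 CPM, compared with 430. Resolution 0.8 gave 8 clusters. Resolution 0.3 gave 3, and 1 of them, with 321 cells, held all 90 cells of cluster 3 and 231 of the 253 of cluster 2, so these were not separate there. With 25 principal components there were 5 clusters, of which 1 was made of 23 of the 36 cells of cluster 4 and another had 13 cells. With at least 2 UMIs required, eGFP was found in 0% of microglia-like cells, tdTomatoLoxP in 54.9% and WPRE in 0.963%, and after thinning tdTomatoLoxP in 58.4% and WPRE in 6.99%. None of 120 called list genes changed direction in 11 settings. The settings of the pseudocount and of the cell filter cannot turn a ratio round, so they could not have shown a change. The 120 also include genes of the rule, whose direction the choice of cells set. Among the results other than the main counts and shares, 48 alternative values stayed near and 30 moved. The border-associated macrophage list took 0.0112% of UMIs without macrophage-like cells, compared with 0.0333%. The cytokine and chemokine log2 ratio of 6-month replicate 1 over the main library was 0.813 after thinning, compared with 1.07. Without immediate early and heat shock genes clusters 1 to 4 kept 96.1%, 84.2%, 76.7% and 100% of their cells in the best match.

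No paired analysis was possible because 1 library holds nearly all members. For the same reason the age test, its alternatives and the fits without single replicates were not run. Depth limits detection of scarce genes, and microglial transcripts in other barcodes of the main library limit ratios against other cells. The values without Malat1-low barcodes by library, those in other cells by their number of markers, lists without rule genes or their most abundant gene, and clusters 1 to 3 compared without cluster 4 were also added after seeing the data.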
